A study of Mus musculus with 30 samples.

Results

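The transcripts of 9 genes that organise the neuromuscular junction were followed in quadriceps muscle of Gaa knockout mice, with the spinal cord of the same animals beside it. The genes were taken by symbol from a deposited table of 17420 genes, and each of the 9 symbols (Agrn, Lrp4, Musk, Dok7, Rapsn, Ache, Colq, Etv5 and Ncam1) matched 1 row. Loss of Gaa, whose product breaks down glycogen in lysosomes, causes Pompe disease. Quadriceps and spinal cord came from 15 males, 3 in each of 5 groups, all 4 months old, which gave 30 RNA-seq libraries.

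The first pair of groups were untreated Gaa WT and Gaa KO mice on a B6;129 background. The second pair were untreated WT and KO mice on a mixed background with DBA2/J, written B6;129;DBA2/J (Ltbp4D36/D36) in the labels and called the DBA mix here, and the label gives the Ltbp4D36/D36 genotype to WT and KO mice alike. The fifth group were KO mice of the DBA mix, with the same Ltbp4 genotype, given AAV9-sp7-Δ8-hGAAco by vein at postnatal day 1-2, a vector that makes a secreted human GAA from a liver-muscle promoter (LiMP). No group on B6;129 was treated, and the DBA-mix comparison groups are labelled untreated, so an effect of the enzyme and an effect of the vector or the injection cannot be told apart. The 2 backgrounds also carry different prefixes in the table's column names, and background and column series cannot be told apart.

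The junction is the synapse between a motor neuron and a muscle fibre. Agrin, released by the nerve, binds LRP4 on the fibre, which activates the receptor kinase MuSK. DOK7 activates MuSK from inside the cell, and rapsyn clusters the acetylcholine receptors beneath the nerve ending. Acetylcholinesterase ends the signal and is anchored in the synaptic matrix by the collagen tail ColQ. ETV5 is a transcription factor of the nuclei that lie under the synapse, and NCAM1 is an adhesion molecule that adult fibres hold at the synapse and that spreads along fibres after denervation and during regeneration.

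The values are the authors' depth-normalised signal, from which whole read counts were recovered for 100% of the values within a tolerance of 0.001. The quadriceps libraries held 1.69e+07 to 3.71e+07 reads and the cord libraries 1.92e+07 to 3.42e+07. Gaa itself followed the labels. In B6;129 quadriceps its signal was 15.8 ± 0.426 (SD, n = 3) in KO and 275 ± 29.0 (SD, n = 3) in WT mice, and in DBA-mix quadriceps it was 14.9 ± 2.91 and 213 ± 42.7 (SD, n = 3 each). Treated DBA-mix animals had 17.96 ± 0.913 (SD, n = 3). Reads were assigned to mouse genes (GRCm38), so this value is of mouse Gaa and is not a measure of the vector's human GAA. In quadriceps the library of WT DBA-mix mouse 4 lay farthest from the rest of its group, with a median absolute distance of 0.22 on the log2 scale against 0.11 to 0.17 for the other 14 libraries. Differences were tested with limma on log2(signal + 0.5), 1 fit per tissue, with Benjamini-Hochberg adjustment over all 14113 genes tested in quadriceps or 15838 in cord, and a gene was called at an adjusted p under 0.05. The labels give each group 3 separate animals, so the errors are between animals.

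All 9 genes passed the filter on low values in quadriceps and 8 passed it in cord, where Musk did not. Per kilobase of exon, the scale on which levels of different genes can be set beside each other, Rapsn was the highest of the 9 in WT B6;129 quadriceps, at 18.9 ± 2.47 signal per kilobase (SD, n = 3). Ache followed at 6.44 ± 0.453, Dok7 at 5.53 ± 0.518, Musk at 3.17 ± 0.769, Etv5 at 2.85 ± 0.329, Colq at 2.58 ± 0.320, Agrn at 2.10 ± 0.230, Lrp4 at 1.38 ± 0.0662 and Ncam1 at 0.532 ± 0.0971 (SD, n = 3 each). Rapsn, Lrp4 and Ncam1 stood clear of their neighbours in this order. The ranges of Ache and Dok7 overlapped, as did those of Musk and Etv5, Etv5 and Colq, and Musk and Agrn. In KO mice of the same background Ncam1 reached 3.83 ± 0.507 signal per kilobase (SD, n = 3), and its range then overlapped those of Etv5 and Musk.

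**Figure D1:**
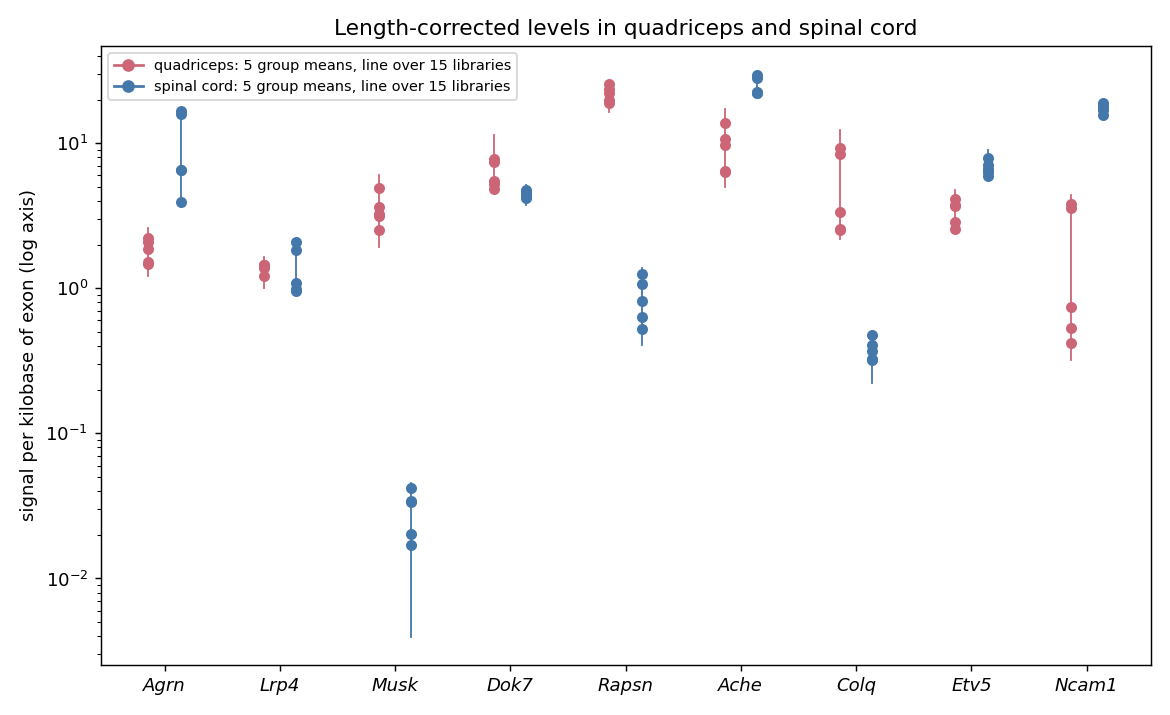
Signal per kilobase of exon (log axis) of the 9 genes, with a dot for each of the 5 group means and a line over the 15 libraries, quadriceps in red and spinal cord in blue. Rapsn, Musk and Colq lie higher in every quadriceps library than in any cord library. Ncam1, Ache, Agrn and Etv5 lie higher in every cord library than in any quadriceps library.

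In quadriceps, 5 of the 9 genes were higher in KO than in WT mice on both backgrounds, and they were the same 5. These were Rapsn, Ache, Colq, Etv5 and Ncam1, and the increases ran from 0.26 to 2.95 on the log2 scale. Of all genes tested, 35.8% were called in the B6;129 comparison and 16.7% were called higher, and in the DBA mix 39.4% were called and 17.1% were called higher. None of the 9 was called lower on either background. In bulk tissue, a change in the number of cells of a type and in RNA per cell cannot be told apart. The median log2 difference over the 9 genes was 0.36 on B6;129 and 0.26 in the DBA mix, against -0.02 and -0.04 over all genes tested. Agrn, Lrp4, Musk and Dok7, the ligand, the receptor, the kinase and its activator, were not called on either background.

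**Figure D2:**
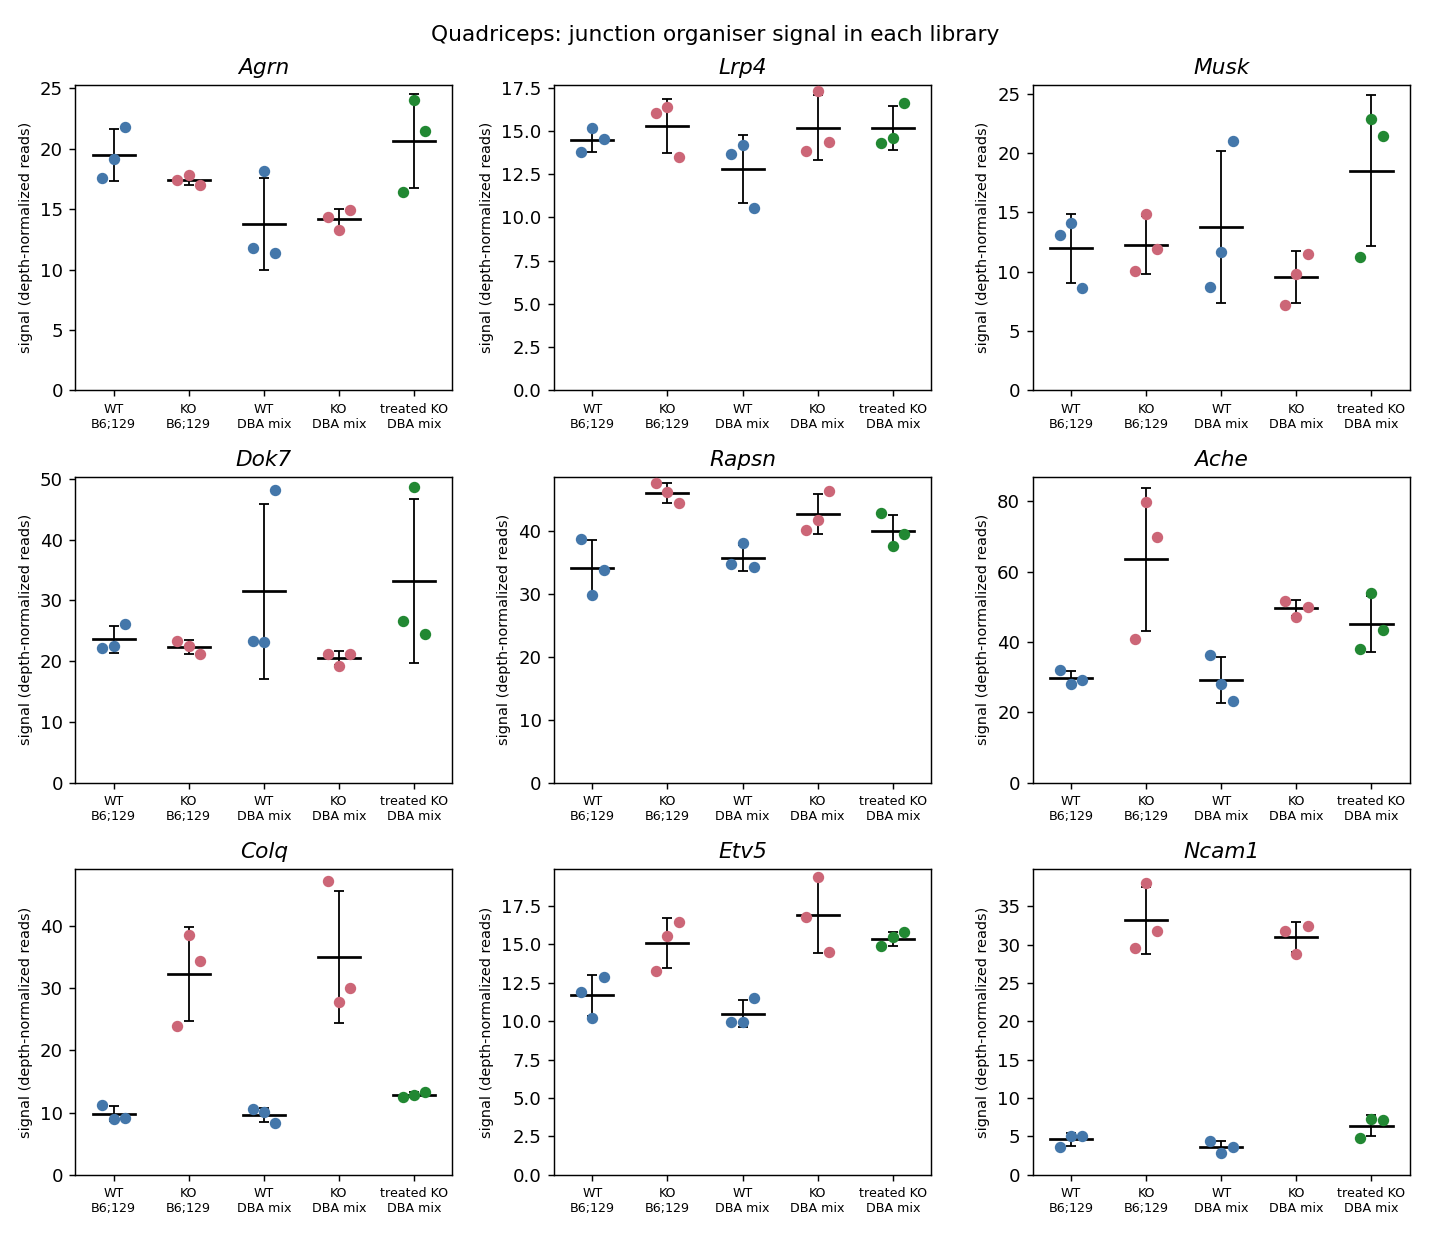
Quadriceps signal (depth-normalised reads, linear axis from 0) of each gene in the 15 libraries, with a point per animal and the mean ± SD of 3 animals per group in black. Ncam1 lies between 28.8 and 38.1 in the 6 untreated KO animals and between 2.79 and 7.30 in the other 9, while Dok7 stands at 48.2 in 1 WT and 48.7 in 1 treated DBA-mix animal.

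Ncam1, the adhesion molecule, showed the largest difference of the 9 on both backgrounds. On B6;129 its signal was 3.64, 5.10 and 5.09 in the WT and 29.6, 38.1 and 31.8 in the KO animals. DBA-mix signal was 4.45, 2.79 and 3.63 in the WT and 31.7, 28.8 and 32.4 in the KO animals. Every KO animal lay above every WT animal, with no value between 5.10 and 28.8 in these 4 groups. The log2 difference was 2.73 ± 0.19 (SE, adjusted p = 3.46e-07) on B6;129 and 2.95 ± 0.19 (SE, adjusted p = 2.98e-07) in the DBA mix. It ranked 71 from the highest of all 14113 genes on B6;129 and 43 in the DBA mix.

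Colq, the collagen tail that holds acetylcholinesterase in the synaptic matrix, followed. Its signal on B6;129 was 11.2, 9.02 and 9.18 in WT and 23.9, 38.6 and 34.3 in KO animals. For DBA-mix animals it was 10.6, 10.0 and 8.34 in WT and 47.2, 27.8 and 29.98 in KO animals. The KO animals again lay above all WT animals, and 1 KO animal of the DBA mix stood above the other two. This gave a log2 difference of 1.65 ± 0.20 (SE, adjusted p = 3.37e-05) on B6;129 and 1.77 ± 0.20 (SE, adjusted p = 1.69e-05) in the DBA mix. Gm49387, a gene on the same strand that is also in the table, shares 5.23% of the exon bases of Colq, so a small part of the reads could have been assigned to either.

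Ache, the enzyme itself, was higher by a smaller factor, with a wide spread between the KO animals of B6;129. On B6;129 its signal was 32.1, 28.03 and 29.2 in WT and 40.8, 79.9 and 69.8 in KO animals. Values of the DBA mix were 36.2, 28.1 and 23.1 in WT and 51.6, 47.1 and 49.8 in KO animals. The groups did not overlap on either background. On the log2 scale KO exceeded WT by 1.03 ± 0.21 (SE, adjusted p = 0.0022) on B6;129 and 0.78 ± 0.21 (SE, adjusted p = 0.011) in the DBA mix.

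Promoters of Ache and Etv5, called higher in KO muscle, and of Musk, not called, are shown with their E-boxes, a motif class that different basic helix-loop-helix factors bind in different forms. CAGCTG is a form that myogenic factors such as MYOG bind, and CACGTG is one known for factors such as MYC and USF. RefSeq windows of 250 bases before to 50 bases after a start site (GRCm38.p6) were at hand for 5 of the 9 genes, with 8 windows in all. The windows printed are Ache at chr5:137288004-137288303 on the plus strand, the first start of Etv5 at chr16:22439521-22439820 on the minus strand and Musk at chr4:58285712-58286011 on the plus strand. Capitals mark E-boxes, searched as CANNTG on both strands, a motif that includes the CAGCTG form searched separately.
Ache: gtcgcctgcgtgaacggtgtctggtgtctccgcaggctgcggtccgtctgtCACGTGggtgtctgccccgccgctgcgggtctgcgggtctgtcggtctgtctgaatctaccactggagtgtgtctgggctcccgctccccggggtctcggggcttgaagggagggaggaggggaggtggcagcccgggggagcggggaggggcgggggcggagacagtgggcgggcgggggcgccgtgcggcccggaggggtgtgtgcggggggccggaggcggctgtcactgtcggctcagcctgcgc
Etv5: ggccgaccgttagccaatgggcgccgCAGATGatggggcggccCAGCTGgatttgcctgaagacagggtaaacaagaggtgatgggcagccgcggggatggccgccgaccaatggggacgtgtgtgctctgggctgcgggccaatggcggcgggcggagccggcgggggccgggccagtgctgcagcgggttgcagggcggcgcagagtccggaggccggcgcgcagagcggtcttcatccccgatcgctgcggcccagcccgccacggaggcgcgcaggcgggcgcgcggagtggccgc
Musk: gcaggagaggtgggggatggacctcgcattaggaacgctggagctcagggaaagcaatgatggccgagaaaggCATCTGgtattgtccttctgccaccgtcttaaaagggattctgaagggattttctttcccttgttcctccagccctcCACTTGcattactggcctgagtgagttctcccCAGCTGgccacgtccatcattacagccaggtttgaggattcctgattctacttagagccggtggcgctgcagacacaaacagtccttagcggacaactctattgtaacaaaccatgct

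The Ache window held 1 CANNTG match, the Etv5 window 2 and the Musk window 3, and the last 2 windows each held 1 CAGCTG. The match in the Ache window was CACGTG. A second Etv5 start had a window with no CANNTG match. Among the other windows not printed, the first start of Agrn held 0 CANNTG matches and the second 1. The first start of Dok7 held 1 and the second 0, and no Agrn or Dok7 window held CAGCTG. The windows printed are thus ones that held a match. The nearest match in the Musk window began 68 bases before the start site, and the one in the Ache window began 199 bases before it. Of 32851 promoter windows of the same length, 72.3% held CANNTG and 16.3% held CAGCTG. The N-box CCGGAA, the motif of the ETS-family factors such as ETV5 and GABP at synaptic genes, was in none of the 8 windows of the 5 genes, against 14.9% of all windows. A match or its absence describes these letters only.

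Rapsn, the receptor-clustering scaffold, differed by less but with little spread. On B6;129 its signal was 38.6, 29.8 and 33.7 in WT and 47.5, 46.2 and 44.3 in KO animals. DBA-mix animals had 34.7, 37.9 and 34.3 in WT and 40.1, 41.7 and 46.2 in KO animals. The groups did not overlap on either background. KO minus WT was, on the log2 scale, 0.44 ± 0.09 (SE, adjusted p = 0.0027) on B6;129 and 0.26 ± 0.09 (SE, adjusted p = 0.0447) in the DBA mix. The DBA-mix call was lost in 6 of 14 alternative settings, with an adjusted p of up to 0.153. Without WT animal 4 and treated animal 22, both high in Dok7, it was 0.23 ± 0.11 (SE, adjusted p = 0.109), and the other 4 genes were still called.

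Etv5, the transcription factor of synaptic nuclei, was higher in KO animals on both backgrounds. On B6;129 its signal was 11.9, 10.23 and 12.9 in WT and 13.3, 15.6 and 16.5 in KO animals. Within the DBA mix it was 9.98, 9.97 and 11.5 in WT and 16.8, 19.4 and 14.5 in KO animals. The groups did not overlap, although the lowest KO and highest WT animal on B6;129 were 13.3 and 12.9. The log2 difference was 0.36 ± 0.12 (SE, adjusted p = 0.0374) on B6;129 and 0.66 ± 0.12 (SE, adjusted p = 0.001) in the DBA mix. The B6;129 call was lost in 5 of 13 alternative settings, with an adjusted p of up to 0.147.

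The 4 genes from agrin to DOK7 were not called, and their values are given with the intervals of the difference. Agrn signal was 17.5, 19.2 and 21.8 in WT and 17.4, 17.8 and 17.0 in KO animals on B6;129, and the 95% confidence interval of the log2 difference ran from -0.51 to 0.21. Signal of the DBA mix was 11.8, 18.1 and 11.4 in WT and 14.3, 13.2 and 14.9 in KO animals, with an interval from -0.29 to 0.43. The groups overlapped on the DBA mix and at their edges on B6;129.

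Lrp4, the agrin receptor, lay at 13.8, 15.2 and 14.5 in WT and 16.0, 16.4 and 13.5 in KO animals on B6;129, with an interval of the log2 difference from -0.20 to 0.34. In the DBA mix it lay at 13.7, 14.2 and 10.6 in WT and 13.8, 17.3 and 14.3 in KO animals, with an interval from -0.03 to 0.51. The groups overlapped on both backgrounds.

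Musk, the kinase, lay at 13.1, 14.1 and 8.67 in WT and 10.1, 14.8 and 11.9 in KO animals on B6;129. In the DBA mix it lay at 8.68, 11.7 and 20.99 in WT and 7.22, 9.85 and 11.5 in KO animals. The intervals of the log2 difference, from -0.65 to 0.74 and from -1.13 to 0.25, were the widest of the 9 on their background, and the groups overlapped. Dok7 lay at 22.2, 22.5 and 26.2 in WT and 23.4, 22.5 and 21.1 in KO animals on B6;129, and at 23.3, 23.1 and 48.2 in WT and 21.2, 19.1 and 21.2 in KO animals of the DBA mix. The DBA-mix log2 difference in Dok7 was -0.52 ± 0.26 (SE, adjusted p = 0.134). Without the WT animal at 48.2 and the treated animal at 48.7 it was -0.18, a value that follows a choice made on Dok7 itself. The WT animal with high Dok7, mouse 4, also had the highest Musk of its group, at 20.99.

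None of the 9 genes differed between the backgrounds in the size of the knockout effect, where 0.283% of all genes were called by limma and 1537 genes had an unadjusted p under 0.05. The intervals of these differences were wide, from -0.34 to 0.79 on the log2 scale for Ncam1 and from -0.08 to 0.68 for Etv5. WT animals of the 2 backgrounds also gave no call among the 9 in quadriceps, where 2.57% of all genes were called and 2517 had an unadjusted p under 0.05. DESeq2 on the recovered reads and edgeR made no call among the 9 in either of these comparisons.

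In quadriceps of the DBA mix, treated KO mice had less Ncam1 and Colq and more Agrn and Musk than untreated KO mice. Of all genes tested, 40.6% were called between treated and untreated KO mice, and 23.6% of all genes were called higher and 17.1% lower. The 4 calls among the 9, 2 higher and 2 lower, were near these shares. Ncam1 and Colq were called in all 14 alternative settings, while the Agrn call was lost in 5 and the Musk call in 6 of them. The median log2 difference over the 9 genes was -0.09, against 0.05 over all genes. These treated animals are compared with the same 3 untreated KO animals as the WT animals of the DBA mix were, so a value far from the others in these KO animals enters both comparisons.

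Ncam1 signal was 4.79, 7.30 and 7.10 in the treated KO animals, all below the 28.8 of the lowest untreated one. The log2 difference from untreated KO animals was -2.21 ± 0.19 (SE, adjusted p = 1.51e-06). All 3 treated animals were still above the highest WT animal of the background, at 4.45, and the log2 difference from WT was 0.74 ± 0.19 (SE, adjusted p = 0.0493). That last call was lost in 10 of 14 alternative settings.

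Colq signal was 12.5, 12.8 and 13.3 in the treated animals, below all untreated KO animals and above the highest WT animal, at 10.6. The log2 difference was -1.37 ± 0.20 (SE, adjusted p = 1.00e-04) from untreated KO and 0.40 ± 0.20 (SE, adjusted p = 0.248) from WT animals.

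Ache, Etv5 and Rapsn were not called between treated and untreated KO animals. Ache signal was 38.1, 53.9 and 43.3 in the treated animals, a range that held all 3 untreated KO values, and the log2 difference was -0.15 with an interval from -0.61 to 0.31. Etv5 signal was 14.9, 15.5 and 15.8 in the treated animals, inside the range of the untreated ones, with a log2 difference of -0.12 and an interval from -0.39 to 0.14. Rapsn signal was 42.7, 37.6 and 39.5, with a log2 difference of -0.09 and an interval from -0.30 to 0.11.

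Against WT animals of the DBA mix, the treated animals had Etv5 higher by 0.53 ± 0.12 on the log2 scale (SE, adjusted p = 0.0378) and the Ncam1 difference given above. These were the 2 genes of the 9 called in this comparison, both higher, where 2.98% of all genes were called and 1.93% were called higher. Ache was 0.63 ± 0.21 higher on the log2 scale (SE, adjusted p = 0.111), with all treated animals above all WT animals. The Etv5 call was lost in 7 of 14 alternative settings, and neither gene was called without treated animal 22 or without treated animal 24.

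Agrn, the nerve- and muscle-made organiser, lay at 16.4, 24.1 and 21.5 in the treated animals, all above the 14.9 of the highest untreated KO animal. The log2 difference was 0.51 ± 0.17 (SE, adjusted p = 0.0253). Musk lay at 11.3, 22.9 and 21.4, and the lowest treated animal fell just under the highest untreated one, at 11.5. Its log2 difference was 0.88 ± 0.32 (SE, adjusted p = 0.0419). The Agrn call was lost in 5 and the Musk call in 6 of 14 alternative settings, and both were lost without treated animal 22, treated animal 24, untreated animal 6 or untreated animal 7. Without animal 22, 6 or 7, 2 of the 9 genes were called in place of 4.

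Dok7 was not called, at 26.5, 48.7 and 24.4 in the treated animals, with a log2 difference of 0.61 ± 0.26 (SE, adjusted p = 0.0794). All treated animals lay above all untreated ones. Treated animal 22 and WT animal 4, both high in Dok7, were also left out, a choice made after seeing the data. The log2 difference in Dok7 was 0.31 in that fit. Leaving out its extreme values narrows the spread of Dok7 itself, so no call is drawn for it. Agrn was then at 0.39 ± 0.17 (SE, adjusted p = 0.0816) and Musk at 0.70 ± 0.29 (SE, adjusted p = 0.0766). Lrp4 lay at 14.3, 14.6 and 16.6, with a log2 difference of 0.00 and an interval from -0.27 to 0.28.

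**Figure D3:**
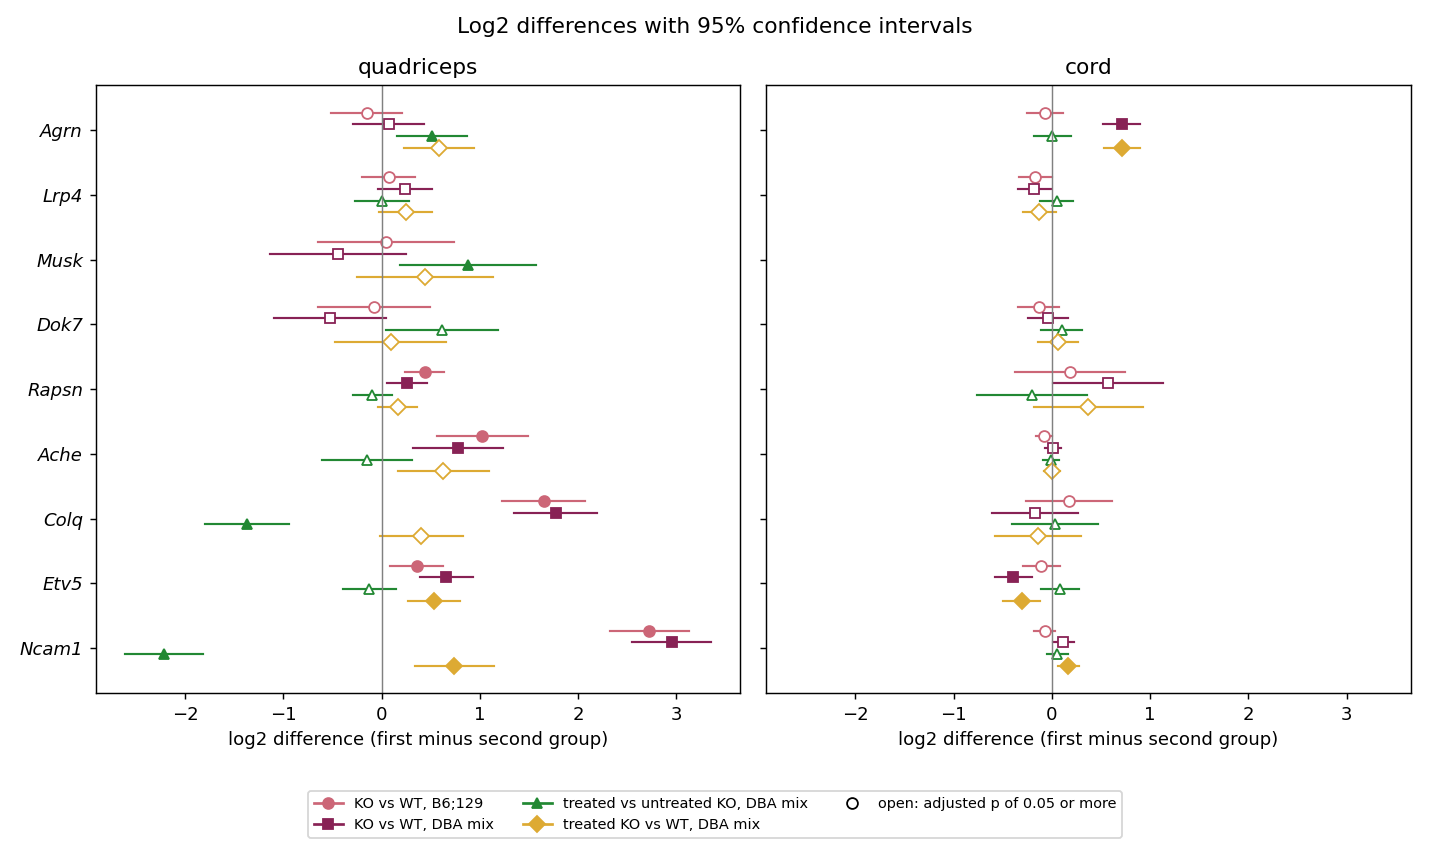
Log2 difference (first minus second group) of each gene in quadriceps and cord for 4 comparisons, with 95% confidence intervals, filled where the adjusted p was under 0.05 and open otherwise. Ncam1 and Colq lie near 2.73 to 2.95 and 1.65 to 1.77 for knockout and at -2.21 and -1.37 for treatment in quadriceps, and every cord interval of Colq lies between -0.61 and 0.61. Musk has no points in cord because it was not tested there.

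In spinal cord 2 of the 8 tested genes, Agrn and Etv5, were called between KO and WT animals of the DBA mix, and none on B6;129. The B6;129 count of 0 was the same by limma, edgeR and DESeq2, where limma called 1.16% of all genes and 1733 had an unadjusted p under 0.05. In the DBA mix Agrn was higher and Etv5 lower, where 13% of all genes were called. Musk had 0 to 5 reads in each cord library and was not tested. Colq had 24 to 94 and Rapsn 23 to 86 reads in each cord library. Their cord signals, 0.85 to 1.93 and 0.74 to 2.49, lay near the filter's limit of 1.

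Agrn is made by motor neurons, which secrete it at the junction, and by other cells of the cord. Its cord signal was 36.5, 40.2 and 33.6 in WT and 61.6, 55.7 and 63.8 in KO animals of the DBA mix, with no overlap. The log2 difference was 0.71 ± 0.09 (SE, adjusted p = 0.00025). On B6;129 it was 162, 143 and 158 in WT and 148, 146 and 148 in KO animals, which overlapped, with a log2 difference of -0.07 and an interval from -0.25 to 0.12. The knockout effects of the 2 backgrounds differed by 0.78 ± 0.12 on the log2 scale (SE, adjusted p = 0.0113), a comparison in which 0.524% of all genes were called and Agrn was the single gene of the 8. For Etv5 this difference between backgrounds was -0.28 ± 0.13 (SE, adjusted p = 0.392).

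Treated KO animals of the DBA mix had Agrn cord signals of 58.6, 69.6 and 54.2, above all WT animals by 0.71 ± 0.09 on the log2 scale (SE, adjusted p = 0.000274) and different from the untreated KO animals by 0.01 ± 0.09 (SE). Etv5 cord signal was 32.7, 27.7 and 36.8 in WT, 23.8, 24.8 and 24.6 in KO and 26.1, 24.7 and 27.0 in treated animals of the DBA mix. Both KO groups lay below the WT group, by -0.39 ± 0.09 (SE, adjusted p = 0.0119) untreated and -0.31 ± 0.09 (SE, adjusted p = 0.029) treated on the log2 scale. The Etv5 call was lost in 2 of 13 alternative settings untreated, with an adjusted p of up to 0.0669, and in 5 of 13 treated, with one of up to 0.13. Markers of other cells moved in cord on both backgrounds. In untreated KO against WT cord of the DBA mix, 5 of 6 macrophage markers were higher (sums of 189 to 210 against 82.6 to 91.1). So were 3 of 5 endothelial (52.4 to 61.5 against 35.8 to 38.4) and 2 of 4 astrocyte markers (3793 to 4125 against 2011 to 2215). Of the motor neuron markers 1 of 6 was higher, with sums of 187 to 223 against 162 to 181. Higher too was 1 of 4 oligodendrocyte markers, and 1 of 5 neuronal markers was lower. On B6;129, where Agrn and Etv5 were not called, 4 of 6 macrophage markers (199 to 211 against 95.2 to 97.5) and 2 of 4 astrocyte markers (3231 to 3592 against 2056 to 2388) were also higher. No endothelial, motor neuron, neuronal or oligodendrocyte marker was called there, and the motor neuron sums overlapped (146 to 182 against 128 to 162). The part of these cells in the Agrn and Etv5 differences was not tested. Ncam1 was called higher in treated than in WT cord, by 0.17 ± 0.05 (SE, adjusted p = 0.0344), which made 3 genes called where 16.8% of all genes were. That call was lost in 6 of 13 alternative settings, with an adjusted p of up to 0.103. In the same comparison 3 of 4 oligodendrocyte and 3 of 4 astrocyte markers were higher, and 1 of 5 neuronal markers was lower. Also higher were 5 of 6 macrophage (sums of 125 to 175 against 82.6 to 91.1) and 2 of 5 endothelial markers (46.8 to 55.2 against 35.8 to 38.4). Of fibroblast markers 2 of 5 were higher, with sums that overlapped, and of Schwann cell markers 1 of 8. The part of these cells in the 3 treated differences was not tested. Between treated and untreated KO cord none of the 8 was called, and limma called 0% of all genes, with 1697 genes at an unadjusted p under 0.05. DESeq2 and edgeR called none of the 8 there either.

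In cord the B6;129 and DBA-mix libraries differed more than the genotypes did. Background and column series cannot be told apart in these differences. In WT animals 4 of the 8 genes were lower in the DBA mix than on B6;129, where 66.8% of all genes were called and 34.5% were called lower. Agrn was lower by 2.06 ± 0.09, Lrp4 by 0.91 ± 0.08, Ache by 0.41 ± 0.04 and Ncam1 by 0.28 ± 0.05 on the log2 scale. Lrp4 cord signal was 22.8, 22.6 and 20.4 on B6;129 and 11.3, 11.0 and 12.1 in the DBA mix, and the values of Ache were 139, 135 and 138 against 102, 102 and 105. The share of reads from mitochondrial transcripts moved with the same split, from 6.99% to 7.70% in the B6;129 cord libraries and from 13.2% to 17.1% in those of the DBA mix, and all 5 endothelial markers were lower in the DBA mix (sums of 35.8 to 38.4 against 94.3 to 109.9). The summed markers of neurons (4215 to 4954 against 3035 to 3197, 3 of 5 called higher and 1 lower) and of oligodendrocytes (9674 to 11362 against 6045 to 6915, 3 of 4 higher and 1 lower) were higher without overlap. The part of any of these in these differences was not tested.

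**Figure D4:**
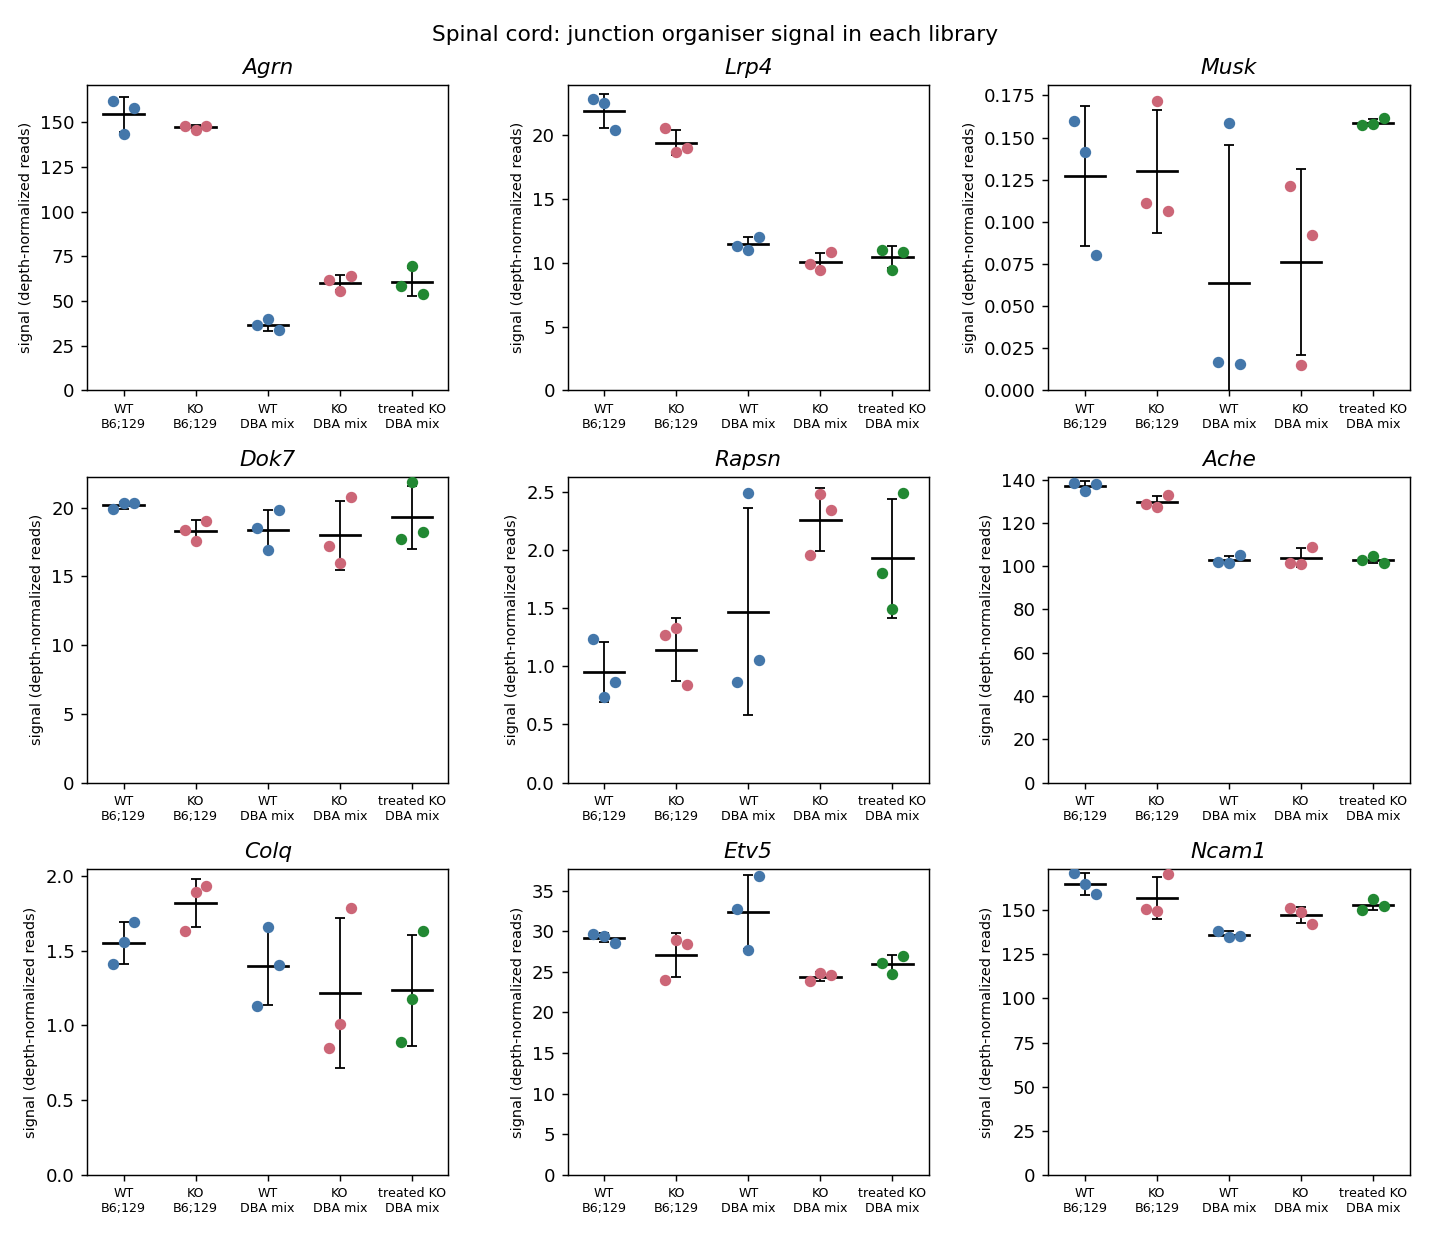
Spinal cord signal (depth-normalised reads, linear axis from 0) of each gene in the 15 libraries, with a point per animal and the mean ± SD of 3 animals per group in black. Agrn lies at 143 or above in the B6;129 animals, at 33.6 to 40.2 in WT and at 54.2 to 69.6 in both KO groups of the DBA mix, and Musk lies at 0.172 or below in every library.

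The knockout effects of the 2 tissues were set against each other in 1 fit over all 30 libraries. Both tissues came from the same animals, but this fit did not pair them. The fit with the animal as a block is given after it. On B6;129 the effect was larger in quadriceps than in cord for 4 of 8 genes, where 25.4% of all genes were called. The excess on the log2 scale was 2.80 ± 0.19 for Ncam1, 1.47 ± 0.29 for Colq, 1.11 ± 0.23 for Ache and 0.47 ± 0.15 for Etv5 (SE), with adjusted p-values up to 0.0254. Colq signal in cord was 0.85 to 1.93, not far above the added 0.5. Any cord effect on Colq is thus understated in each comparison of the tissues. In the DBA mix the effects differed for 6 of 8 genes, where 32.3% were called. Ncam1, Colq, Etv5, Ache and Lrp4 had the larger effect in quadriceps, by 2.84 ± 0.19, 1.95 ± 0.29, 1.05 ± 0.15, 0.77 ± 0.23 and 0.42 ± 0.15 on the log2 scale, and Agrn had the larger effect in cord, by 0.64 ± 0.19 (SE), or a difference of -0.64.

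With the animal as a block, Lrp4 was no longer called, at an adjusted p of 0.0596, so the count was 5, and the other 5 calls in the DBA mix remained. The treatment effect differed between tissues for 3 of 8 genes, where 33.6% of all genes were called. The quadriceps effect minus the cord effect was -2.27 ± 0.19 for Ncam1, -1.40 ± 0.29 for Colq and 0.51 ± 0.19 for Agrn (SE), with adjusted p-values up to 0.0457. The Agrn call was lost in 10 of 19 alternative settings, with an adjusted p of up to 0.138. Of the knockout effects, the Etv5 call on B6;129 was lost in 5 of 19 settings and the Lrp4 call in the DBA mix in 6 of 19.

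In WT animals most of the 8 genes differed between the tissues, as did 81.3% of all genes on B6;129 and 82.5% in the DBA mix. On B6;129 Rapsn was higher in quadriceps by 4.58 ± 0.20 and Colq by 2.32 ± 0.20 on the log2 scale. The quadriceps minus cord difference was -5.03 for Ncam1, -2.96 for Agrn, -2.19 for Ache, -1.29 for Etv5 and -0.58 for Lrp4, and in the DBA mix Lrp4 was not called while Dok7 was higher in quadriceps by 0.68 ± 0.21. Without the quadriceps library of WT animal 4 the Dok7 difference was 0.33 and no longer called, with an adjusted p of 0.0885.

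Genes that work with the 9 were described from 7 lists in quadriceps, to be read beside the shares of all genes called, which were 35.8% on B6;129, 39.4% in the DBA mix, 40.6% on treatment and 2.98% for treated against WT animals. Of the 5 acetylcholine receptor subunits, 4 were called higher in KO animals on B6;129 and 5 in the DBA mix, and 4 were called lower on treatment, with list medians of 2.06, 2.27 and -2.04 on the log2 scale. Chrna1, the alpha subunit, was at 67.2 ± 8.49 in KO and 15.7 ± 1.44 in WT animals on B6;129 (SD, n = 3 each). Chrng, the gamma subunit of fetal receptors, was at 5.68 ± 1.36 and 0.173 ± 0.0563. Chrne, the epsilon subunit of adult receptors, differed by -0.03 ± 0.19 on the log2 scale on B6;129 (SE, adjusted p = 0.913) and by 0.53 ± 0.19 in the DBA mix (SE, adjusted p = 0.0376).

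Among 9 regulators that respond to denervation, 5 were called higher and 1 lower in KO animals on B6;129, 4 and 1 in the DBA mix, and 1 higher and 5 lower on treatment. Myog, the myogenic factor that activates synaptic genes, was at 23.9 ± 2.82 in KO and 4.54 ± 1.72 in WT animals on B6;129, and at 24.8 ± 1.60 in untreated and 5.69 ± 0.618 in treated KO animals of the DBA mix (SD, n = 3 each). Runx1 was higher in KO animals by 2.97 ± 0.33 and 2.00 ± 0.33 and Gadd45a by 1.93 ± 0.22 and 2.01 ± 0.22 on the log2 scale, on B6;129 and in the DBA mix (SE). Dach2, a repressor of Myog, was lower by 1.43 ± 0.37 and 1.76 ± 0.37.

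The 6 tested of 9 genes of synaptic transcription gave 2 calls higher and 1 lower on B6;129, 1 and 1 in the DBA mix, and 1 and 1 on treatment, beside 35.8%, 39.4% and 40.6% of all genes called. Erbb2, a neuregulin receptor subunit, was at 8.93 ± 0.319 in KO and 2.94 ± 0.0807 in WT animals on B6;129 (SD, n = 3 each). Gabpa, an ETS factor that binds the N-box, was lower in KO animals by 0.38 ± 0.07 and 0.45 ± 0.07 and higher on treatment by 0.28 ± 0.07 on the log2 scale (SE). Etv4, a close relative of Etv5, was called on B6;129 (0.73 ± 0.24, SE, adjusted p = 0.0313) and had a difference of 0.31 ± 0.24 in the DBA mix (SE, adjusted p = 0.337).

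The 17 genes of the MuSK pathway inside the fibre split both ways, with 6 called higher and 7 lower on B6;129, 4 and 9 in the DBA mix, and 9 and 5 on treatment, where 35.8%, 39.4% and 40.6% of all genes were called. Cttn, an actin regulator, was higher in KO animals by 0.90 ± 0.10 and 1.09 ± 0.10 and lower on treatment by 0.78 ± 0.10 on the log2 scale (SE). Abl1, a kinase downstream of MuSK, was lower by 0.31 ± 0.08 on both backgrounds, higher on treatment by 0.74 ± 0.08, and above WT in treated animals by 0.43 ± 0.08 (SE), so treated animals lay above and untreated KO animals below WT. It was the single gene of the 17 called between treated and WT animals.

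Of the 17 genes of the synaptic matrix, 5 were called higher and 2 lower on B6;129, 2 and 5 in the DBA mix, and 7 and 2 on treatment. Prima1, the membrane anchor of acetylcholinesterase, was at 0.216 ± 0.210 in KO and 2.67 ± 0.354 in WT animals on B6;129 and at 0.214 ± 0.0735 and 2.49 ± 1.16 in the DBA mix (SD, n = 3 each), where the collagen anchor Colq was higher. The log2 differences in Prima1 were -2.18 ± 0.45 and -1.98 ± 0.45 (SE, adjusted p = 0.002 and 0.00345), and 2.86 ± 0.45 on treatment (SE, adjusted p = 2.02e-04).

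Among 10 genes of the postsynaptic scaffold, 2 were called higher and 2 lower on B6;129, 2 and 3 in the DBA mix, and 3 and 2 on treatment, counts near the shares of all genes called. Nes, the intermediate filament nestin found at the junction, was higher in KO animals by 1.73 ± 0.26 and 1.93 ± 0.26, and Syne1, which anchors synaptic nuclei, was lower by 0.79 ± 0.11 and 0.82 ± 0.11 on the log2 scale (SE). The 5 glycosylation genes of congenital myasthenia gave 1 call higher and 1 lower on each background. Gfpt1, the first enzyme of hexosamine synthesis, was lower by 0.38 ± 0.07 and 0.61 ± 0.07 and higher on treatment by 0.67 ± 0.07 (SE). Between treated and WT animals 2 genes of the 7 lists were called, Abl1 and Plec, also near the 2.98% of all genes.

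**Figure D5:**
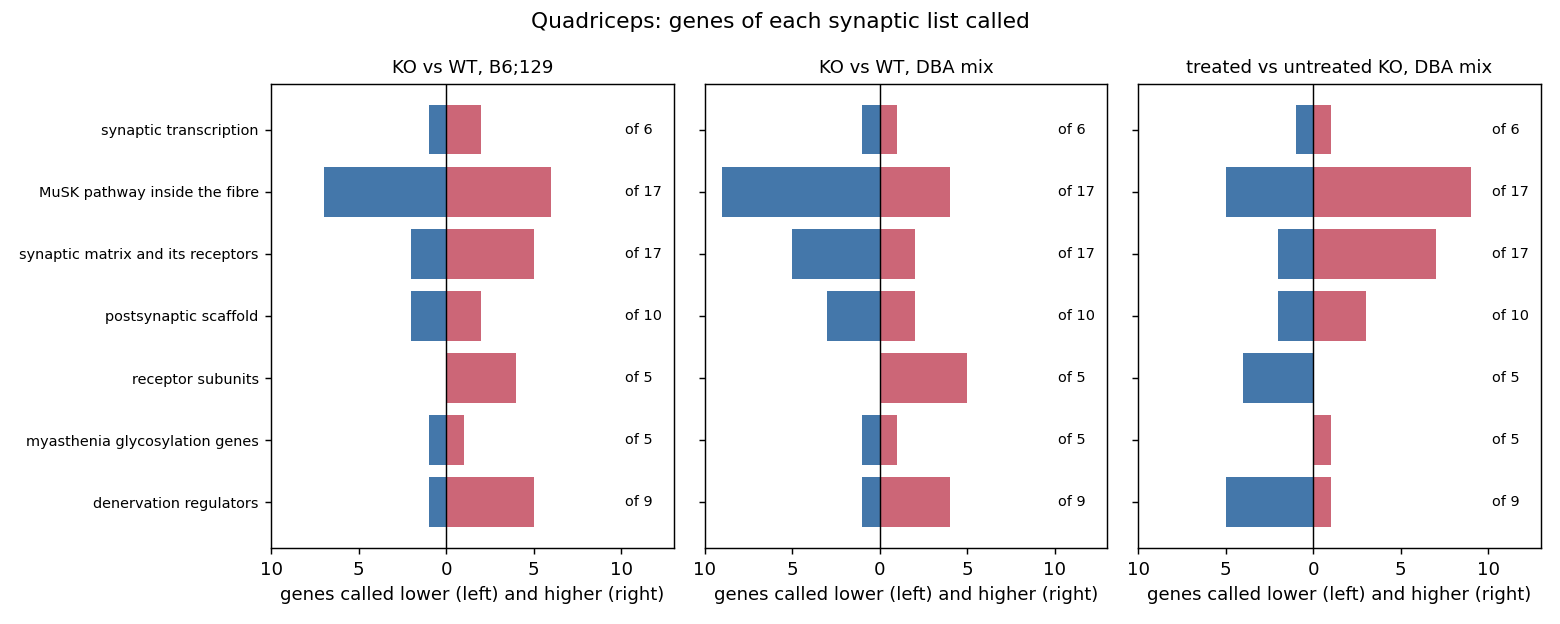
Number of genes of each of 7 lists called higher (red, to the right) or lower (blue, to the left) in quadriceps in 3 comparisons, with the number tested at the right of each panel. Receptor subunits were called higher in 4 and 5 of 5 in the KO comparisons and lower in 4 of 5 on treatment, while the MuSK pathway list was split in all 3.

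Markers of other cell types moved with the knockout in the same libraries. Markers of satellite cells and myoblasts, cells that also express Ncam1, were called higher in 4 of 6 on B6;129, with a summed signal of 95.5 to 107 in KO and 59.1 to 66.6 in WT animals. In the DBA mix 2 of 6 were called higher, Mymk and Mymx, and the sums of 64.8 to 75.1 and 51.3 to 65.9 overlapped. Schwann cell markers gave 0 of 6 and 2 of 6 calls higher, with sums of 18.5 to 24.4 in KO and 26.04 to 29.1 in WT animals on B6;129, and 21.8 to 44.4 against 16.6 to 20.4 in the DBA mix.

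Macrophage markers were higher in 5 of 6 on both backgrounds, with sums of 129 to 164 in KO and 29.1 to 41.7 in WT animals on B6;129, and 106 to 216 against 57.9 to 70.7 in the DBA mix. Fibroblast markers were higher in 4 and 3 of 5, and endothelial markers lower in 5 and 4 of 5. Muscle fibre markers were lower in 1 of 6 on B6;129 (sums of 152998 to 163940 in KO and 191257 to 213546 in WT animals) and in 3 of 6 in the DBA mix (140605 to 165177 and 198051 to 235018), with no overlap of the sums. Between treated and untreated KO animals, 4 macrophage and 3 satellite cell markers were lower, with sums of 45.6 to 96.5 and 56.6 to 74.9 in the treated, 5 endothelial and 4 fibre markers were higher, and no Schwann cell marker was called. Between treated and WT animals, 1 of 6 Schwann cell markers was higher (sums of 29.6 to 65.2 against 16.6 to 20.4). So was 1 of 5 fibroblast markers (670 to 870 against 479 to 626), and no marker of the other lists was called. The part of these cells in the differences of the 9 genes was not tested. Motor neuron markers in quadriceps were near 0, with a summed signal of 1.95 or less in every library, and Chat averaged 0.0453 or less in each group. In cord the fibre markers summed to 111 to 1679, against 140605 to 266664 in quadriceps.

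The genes whose log2 level followed each of the 9 most closely over the 15 quadriceps libraries were found by Pearson's r among all genes tested, as a description over libraries that share groups. Ncam1 went with Chrna1 (r = 0.982), Mvp (0.982) and Cttn (0.980), and Colq with Cpe (0.980), Lingo1 (0.980) and Tmem176a (0.979). Ache went with Ufsp1 (0.907), Phldb1 and Zfp503, Etv5 with App (0.899), Col16a1 and Cygb, and Rapsn with Cnpy3 (0.897), Chmp1a and Rtkn. Dok7 went with Rbm20 (0.924), Hk2 and Usp36, and Musk with Ap3d1 (0.854), Slc4a1ap and Mast2. Agrn went with Adam22 (0.907), an unnamed gene and Itpr2, and Lrp4 with Vit (0.863), Kcnq5 and Exoc1.

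In GRCm38 with GENCODE M21, Agrn lies on chromosome 4 from 156165290 to 156197488 (minus strand) and Musk on the same chromosome from 58285960 to 58374303 (plus). Lrp4 lies on chromosome 2 from 91457511 to 91513779 (plus) and Rapsn from 91035620 to 91045729 (plus). Dok7 lies on chromosome 5 from 35056766 to 35087839 (plus) and Ache from 137287519 to 137294466 (plus). Colq lies on chromosome 14 from 31523082 to 31591343 (minus), Etv5 on chromosome 16 from 22381309 to 22439719 (minus) and Ncam1 on chromosome 9 from 49502136 to 49798925 (minus). An antisense gene, Gm11149, shares 4.81% of the exon bases of Ncam1, and the library kit is not stated to keep strand.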

How the data were processed

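The authors deposited 1 table of normalised signal for 17420 genes in 30 libraries (NEBNext Ultra RNA kit, single-end reads of 61 bases, per the labels' protocols). The submitters' processing notes name cutadapt, RSEM, limma, edgeR and GRCm38. The deposited signal equals reads plus 0.5, divided by a scaled library size, so whole reads could be recovered (all values within 0.001 of a whole number).

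Groups came from the labels. The table columns of the 3 treated cord samples were joined by the animal numbers in the titles, because the descriptions name 1 column for 2 of them. Kept genes reached a signal of 1 in 3 or more libraries of a tissue (14113 in quadriceps, 15838 in cord, 13187 in both). R 4.3.3 with limma 3.58.1 fitted log2(signal + 0.5), with a mean-variance trend, all 5 groups in 1 fit per tissue, and comparisons of the tissues in 1 fit over all 30 libraries. A fold change on this scale understates that of low genes. Alternatives were pseudocount 2, a minimum signal of 4, no filter, quantile normalisation, edgeR 4.0.16 and DESeq2 1.42.0 on the recovered reads, only the groups compared, each library left out and the animal as block. The scripts were tested on simulated data.

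Both tissues came from 15 animals, paired by the labels. Deviations from group means were correlated between each quadriceps library and the 3 cord libraries of its own group. They correlated at 0.109 to 0.354 within an animal and at -0.03 or less between animals. Deviations of 3 libraries sum to 0, so a positive value within an animal pushes the others below 0. Among these 3 cord libraries, 15 of 15 animals were closest to their own. The genes, the 7 lists, the markers and the tests were chosen with earlier results of these data known. Named list genes were those with the smallest adjusted p among called genes, up to 4 per list and comparison, and those set beside a member. Chrne falls outside this rule and was named after its values were seen. Positions and exon lengths are from GENCODE M21, which held 99.8% of the table's genes.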

Additional observations from a re-analysis of the deposited data

Results flagged for a closer look

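In 14 cases the effect on 1 of the 9 genes differed by limma's test between the 2 backgrounds or the 2 tissues. Groups of 3 animals are too small to test for a single outlying sample.

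In cord, the knockout effect on Agrn was larger in the DBA mix than on B6;129 by 0.78 on the log2 scale (adjusted p = 0.0113). The KO minus WT difference was -0.07 on B6;129 and 0.71 in the DBA mix. For this difference between backgrounds, 0 of the 43 tested genes within 1 Mb of Agrn were called, against 0.524% of all genes. At so low a share a count of 0 among 43 genes was likely in any region, so nothing is drawn from it. For KO against WT in the DBA mix 8 of the 43 were called, 3 higher and 5 lower, 18.6% against 13.0% of all genes.

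Between tissues on B6;129, the quadriceps effect of the knockout exceeded the cord effect by 1.11 for Ache, 1.47 for Colq, 0.47 for Etv5 and 2.80 for Ncam1. In the DBA mix it exceeded it by 0.42 for Lrp4, 0.77 for Ache, 1.95 for Colq, 1.05 for Etv5 and 2.84 for Ncam1, and differed by -0.64 for Agrn. The treatment effect in quadriceps minus that in cord was 0.51 for Agrn, -1.40 for Colq and -2.27 for Ncam1. The Agrn treatment difference was called in 9 of 19 alternative settings.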

How the results depend on the processing

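Of 53 called differences in the 9 genes, 40 were called under every alternative tried, and none reversed. Of 89 uncalled ones, 9 were called and 22 changed sign under at least 1 alternative. Treated KO against WT quadriceps was the least stable count, at 2 of the 9. It was 1 with pseudocount 2, no filter, quantile normalisation or edgeR, and 3 with DESeq2. With only the groups compared it was 0. It was also 0 without WT animal 4 and treated animal 22, both high in Dok7, a choice made after seeing the data. With only the groups compared, the cord count was 1 in place of 2 for KO against WT and 1 in place of 3 for treated KO against WT in the DBA mix. With 1 library left out at a time, quadriceps counts ran from 4 to 5 for KO against WT on each background, 2 to 4 for treatment, 0 to 2 for treated KO against WT, 0 to 0 for the difference between backgrounds and 0 to 1 for WT against WT. Cord counts ran from 0 to 0 for KO against WT on B6;129 and 1 to 3 in the DBA mix, 0 to 0 for treatment, 1 to 3 for treated KO against WT, 1 to 1 for the difference between backgrounds and 4 to 5 for WT against WT. Counts of differences between tissues ran from 3 to 4 and 5 to 7 for the knockout, 2 to 3 for treatment and 7 to 7 for WT animals on each background. With the animal as a block they were 4 and 5 for the knockout, 3 for treatment and 7 and 7 for WT animals, and Lrp4 was the call lost. The cause of these changes was not tested. Genes at low signal, Musk in cord above all, had too few reads for a test. Colq and Rapsn in cord were tested at low counts, 24 to 94 and 23 to 86 reads per library.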
